A study of Mus musculus with 20 samples.

Results

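The genes described are those of oxidative phosphorylation: the subunits of respiratory complexes I to V, cytochrome c, and 2 complex I assembly factors whose symbols begin the same way. A probe set was taken when its platform symbol began with Nduf, Uqcr, Atp5 or Cox4 to Cox8, or was Sdha, Sdhb, Sdhc, Sdhd, Cyc1 or Cycs, and each gene was represented by its probe set with the highest mean signal over 20 arrays. This gave 73 of the 8221 genes that the array measures with probe sets of a single symbol: 30 of complex I, 2 complex I assembly factors (Ndufaf1 and Ndufaf4), 4 of complex II, 8 of complex III, cytochrome c (Cycs), 14 of complex IV and 14 of complex V. The study measured total RNA on Affymetrix arrays in 4 groups of 5: extraocular muscle (EOM, the muscles that move the eye) of MDX mice and of controls, and leg muscle of MDX mice and of controls, all 8 weeks old. MDX mice carry a nonsense mutation in Dmd, the dystrophin gene, in every cell and model Duchenne muscular dystrophy; the series title calls the controls wild type. The labels give the leg control tissue as gastrocnemius and soleus and the leg MDX tissue only as leg muscle, and nothing in them ties an array to an animal. The p-values therefore rest on the spread among the arrays of a group, part of which may be technical. MDX and control arrays also carry different description labels, so a batch that runs with those labels cannot be told apart from genotype.

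Oxidative phosphorylation makes most of the ATP of a resting or slowly contracting muscle. Complex I takes electrons from NADH and complex II from succinate; ubiquinone carries them to complex III and cytochrome c to complex IV, which reduces oxygen. Complexes I, III and IV pump protons across the inner mitochondrial membrane, and complex V, the ATP synthase, lets them back and makes ATP. All the genes here are nuclear; the subunits encoded by mitochondrial DNA do not carry these symbols. Several subunits exist as isoforms that differ between tissues: Cox6a2, Cox7a1 and Cox8b encode the heart and skeletal muscle forms of their subunits in the mouse, and Cox6a1 and Cox7a2 the forms of most other tissues.

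The promoters of such genes often hold sites of NRF1, of ERR and ETS family factors and of YY1, which are regulators of mitochondrial genes. RefSeq start sites on mouse build GRCm38.p6 were found for 58 of the 73 genes, and 250 bases before to 50 bases after each start were searched on both strands for 5 words. The NRF1 word (GCGCA, any base, then GCGC) lay in 19.0% of the 58 promoters, against 4.78% of the 27025 promoters of all genes. The ETS word CCGGAAG lay in 25.9% against 9.12%, the YY1 word AAGATGGC in 12.1% against 2.88%, and the ERR word AAGGTCA in 8.62% against 4.66%. The TATA box word TATAAA lay in 10.3% against 14.2%. Of the 20 genes with a promoter that were lower in MDX than in control leg muscle, 4 held the NRF1 word, 4 the YY1 word and 3 the ETS word; of 25 tested genes that differed neither there nor between the muscles of MDX mice, 4 held the NRF1 word, 2 the YY1 word and 7 the ETS word. A word is a description of the letters, not a bound site. The 4 promoters shown belong to genes that the leg comparison turns on, 3 with a lower signal and Cox6a1 with a higher one; capitals mark the words.
Uqcrc1 (chr9:108936398-108936697, plus strand): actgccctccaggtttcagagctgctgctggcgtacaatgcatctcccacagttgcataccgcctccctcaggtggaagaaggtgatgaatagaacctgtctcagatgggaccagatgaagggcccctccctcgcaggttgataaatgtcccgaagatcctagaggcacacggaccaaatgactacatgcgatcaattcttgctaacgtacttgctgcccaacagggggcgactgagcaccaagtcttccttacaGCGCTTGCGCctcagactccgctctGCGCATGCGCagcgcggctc
Atp5e (chr2:174464052-174464351, minus strand): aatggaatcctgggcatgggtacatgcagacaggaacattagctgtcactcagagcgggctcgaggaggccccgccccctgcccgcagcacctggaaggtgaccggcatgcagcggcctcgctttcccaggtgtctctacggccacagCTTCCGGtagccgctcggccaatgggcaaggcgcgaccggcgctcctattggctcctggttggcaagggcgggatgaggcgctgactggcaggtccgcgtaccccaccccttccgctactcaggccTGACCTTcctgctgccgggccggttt
Sdha (chr13:74350191-74350490, minus strand): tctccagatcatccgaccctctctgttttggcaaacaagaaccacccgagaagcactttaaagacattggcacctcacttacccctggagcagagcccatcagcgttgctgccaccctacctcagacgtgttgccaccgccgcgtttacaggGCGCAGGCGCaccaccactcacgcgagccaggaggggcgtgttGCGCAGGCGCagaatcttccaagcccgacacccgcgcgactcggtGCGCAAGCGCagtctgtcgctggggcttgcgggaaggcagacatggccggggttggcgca
Cox6a1 (chr5:115348909-115349208, minus strand): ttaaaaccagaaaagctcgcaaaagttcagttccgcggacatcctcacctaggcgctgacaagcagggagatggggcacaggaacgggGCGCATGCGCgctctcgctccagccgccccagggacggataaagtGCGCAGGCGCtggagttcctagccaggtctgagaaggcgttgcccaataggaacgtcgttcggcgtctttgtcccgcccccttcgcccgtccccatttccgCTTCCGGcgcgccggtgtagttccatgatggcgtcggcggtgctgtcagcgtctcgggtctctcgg
The Sdha promoter held 3 NRF1 words and the Uqcrc1 promoter 2, both just after the start. The first Uqcrc1 word matched on the minus strand, and the second reads the same on both strands. The Cox6a1 promoter held 2 NRF1 words and 1 ETS word. The Atp5e promoter held 1 ETS and 1 ERR word and no NRF1 word. The words did not overlap in these 4 promoters. The NRF1 words lay before the start in Sdha and in Cox6a1, whose leg signals differed in opposite directions.

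Signals are the deposited intensities scaled to a common trimmed mean of 500 on each array. Of the 73 genes, 70 reached a signal of 200 on at least 5 arrays and were tested, 62 of them at 200 or more on all 20 arrays. Ndufc2, Ndufa12 and Cox8a were not tested: Cox8a lay between 26.8 and 119.9 on every array. Between 47.2% and 52.0% of all probe sets reached 200 on an array. Dmd was at 77.5 ± 32.3 in leg MDX, against 149 ± 40.2 in leg control (limma adjusted p = 0.0323), and at 119 ± 31.7 in EOM MDX, against 268 ± 47.4 in EOM control (0.233; SD, n = 5 each); the mutation need not remove the transcript. Dmd reached 200 on 6 arrays only, leg control 1 and the 5 EOM controls, so it was tested only through control arrays. The signal sum of 3 markers of extraocular fibres (Myh3, Myh6 and Myh8) was 961 to 1612 in EOM MDX, against 585 to 1111 in leg MDX. It was 1103 to 1824 in EOM control, against 933 to 1449.8 in leg control, so this sum did not part the muscles. Myh13 was on the same list but had no probe set of a single symbol. All 4 smooth muscle genes and both tested nerve genes were higher in EOM than in leg in each genotype. So were 2 of 2 gland genes in MDX mice and 1 of 2 in controls. Leg control 1 and 4 stood apart from the other leg control arrays. Leg control 4 had a Myl2 signal of 45.2 and a Bpifa2 signal of 8892, Myl2 being a slow fibre light chain and Bpifa2 a salivary gland protein. Leg control 1 had a slow fibre marker sum of 105668 and a signal of Myh7, the slow myosin heavy chain, of 14239. Its excess was not confined to slow fibre genes. It was also the highest leg control array in the fast fibre sum, at 164356. The same held for the sum of myofibre genes shared by fibre types, at 66522. Results of the leg comparison are therefore also given without both arrays.

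In leg muscle of MDX mice the subunit genes were lower as a set of modest changes spread over all 5 complexes. Of the 70 tested genes 24 fell and 1 rose at a limma adjusted p under 5%, and 68 of 70 log2 differences were negative. Over all 7204 tested probe sets 7.15% fell and 10.7% rose. The median log2 difference of the 70 genes was -0.43, against -0.06 over all tested probe sets, and the range was -0.95 (Ndufs4) to 0.77 (Cox6a1). Complex I held 13 lower genes of 28 tested, complex II 2 of 4, complex III 2 of 8, complex IV 4 of 13 and complex V 2 of 14, with median log2 differences of -0.48, -0.38, -0.50, -0.43 and -0.29. In whole muscle, fewer fibres and less RNA per fibre cannot be told apart. The count of 25 became 16 without leg MDX 3, 15 with quantile normalization, 16 when the leg arrays alone were fitted and 8 without leg control 1 and 4; 15 of the 25 calls held in each of the 20 fits that left out 1 array. With quantile normalization 59 of 70 differences were negative and the median was -0.26, with -0.14 in complex II and -0.14 in complex V (-0.10 over all tested probe sets).

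**Figure D1:**
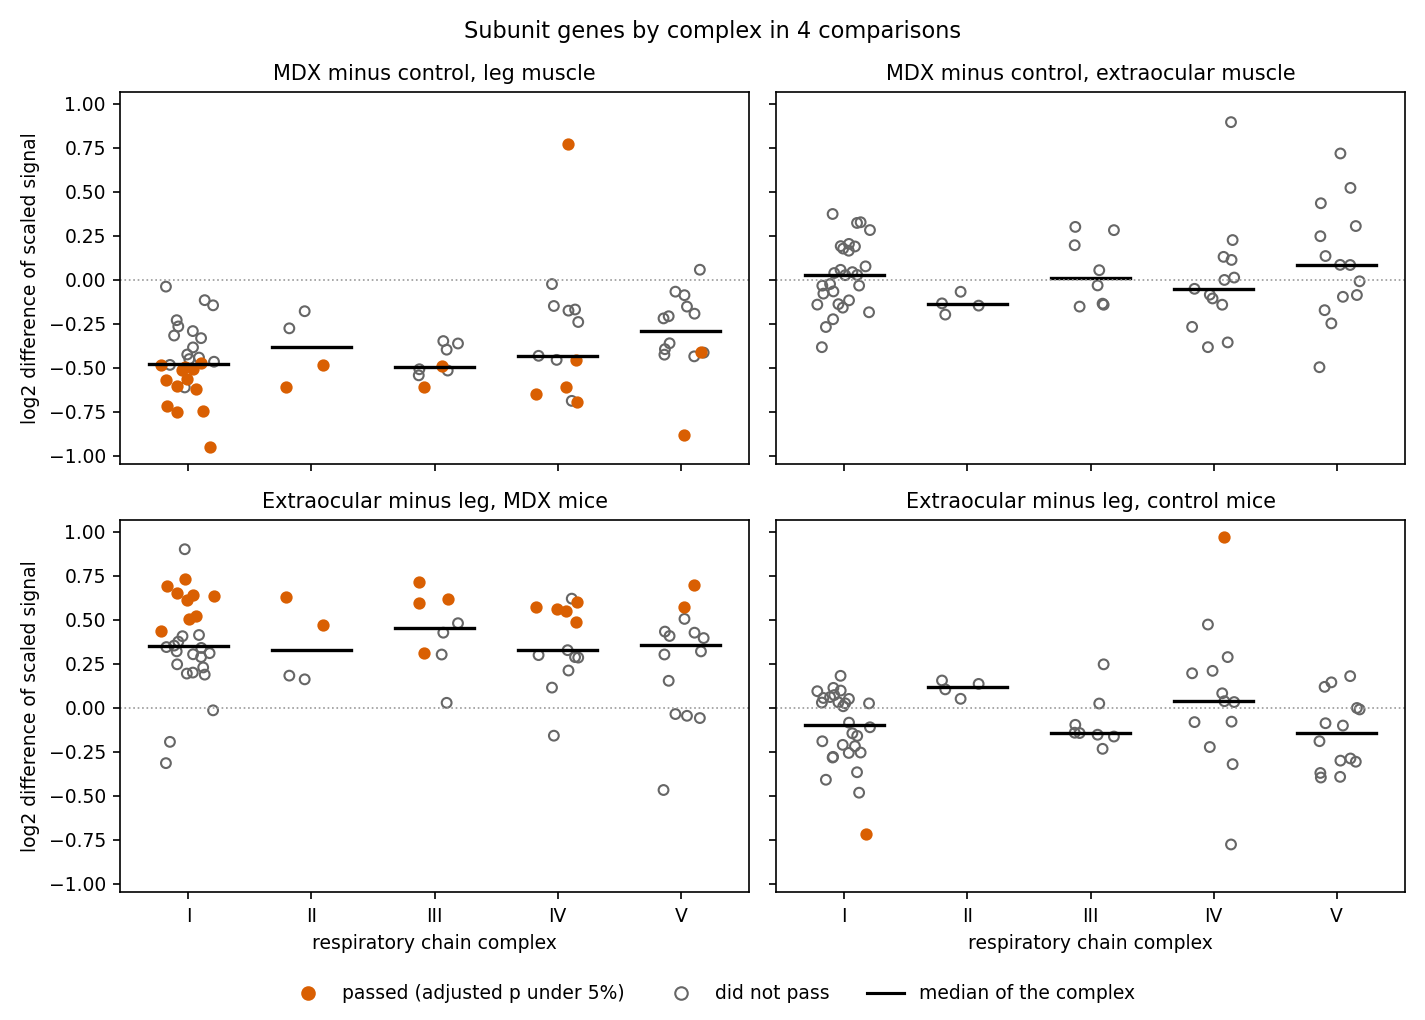
Log2 difference of scaled signal (vertical axis) of each tested subunit gene, grouped by respiratory complex (horizontal axis), in 4 comparisons; filled points passed at an adjusted p under 5%, open points did not, and bars are medians of a complex. The assembly factors and cytochrome c are not drawn. In leg muscle nearly all points lie below 0 and 25 of the 70 tested genes passed, in extraocular muscle the points straddle 0 and none passed, and in MDX mice 24 genes were higher in extraocular than in leg muscle, counting the genes not drawn.

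Complex I is the largest complex, and all 28 of its tested genes had a negative log2 difference in leg muscle. Ndufs4, an accessory subunit at the NADH-oxidising end of the complex, had signals of 311, 497, 279, 293 and 181 on leg MDX arrays 1 to 5, against 376, 657, 652, 598 and 641 on leg control arrays 1 to 5. The groups overlapped through leg MDX 2 and leg control 1, and the log2 difference was -0.95 (SE 0.21, limma adjusted p = 0.00299, n = 5 each). Ndufb6, an accessory subunit of the membrane arm, had signals of 6446, 8307, 5522, 7826 and 7122 in leg MDX, against 13691, 9286, 10031, 11575 and 9645 in leg control. All 5 MDX arrays lay below all 5 controls, and the fall was 1.54-fold (log2 difference -0.62, SE 0.14, limma adjusted p = 0.00243). Ndufs1, the largest core subunit, which carries iron-sulfur clusters, had signals of 5053, 4599, 3941, 5079 and 3274 against 6739, 6278, 6239, 8088 and 5796, again with no overlap (log2 difference -0.60, SE 0.14, limma adjusted p = 0.00318).

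Ndufb8, a membrane arm subunit, had signals of 5218, 5061, 4395, 5762 and 3542 in leg MDX, against 10343, 8038, 6597, 9271 and 6295 in leg control, and the groups did not overlap (log2 difference -0.75, limma adjusted p = 0.00360). Ndufv3, a small subunit beside the NADH-binding site, had 2091, 2087, 1979.9, 2731 and 1527 against 5399, 3334, 3063, 3213 and 2697. Its highest MDX array, leg MDX 4, lay just above the lowest control, leg control 5, and leg control 1 stood far above the others (log2 difference -0.75, limma adjusted p = 0.00469). Ndufa8, an accessory subunit, had 3500.5, 3715, 3200.4, 3753 and 2230.4 against 6132, 5869, 5460.4, 6494 and 3263, and leg control 5 was the single control within the MDX range (log2 difference -0.72, limma adjusted p = 0.00575). The other lower genes of complex I were Ndufa3, Ndufa9, Ndufb2, Ndufb9, Ndufb10, Ndufb11 and the core subunit Ndufv2, with log2 differences of -0.57 to -0.47. Of these, only Ndufa3 kept its call with quantile normalization, the others having limma adjusted p values of 0.0762 to 0.368. Ndufa9, Ndufb2, Ndufb9, Ndufb11 and Ndufv2 also lost theirs in 1 to 3 of the 20 fits that left out 1 array. Ndufaf4, which helps to assemble complex I, fell by 0.70 on the log2 scale with signals of 389.6 ± 54.9 against 641 ± 154 (SD, n = 5 each; limma adjusted p = 0.0132), and the other assembly factor, Ndufaf1, had a log2 difference of -0.24 and did not pass. The core subunits Ndufv1 and Ndufs3 did not pass, with a log2 difference for Ndufv1, which binds NADH, of -0.39 (adjusted p = 0.0726 by limma) and for Ndufs3 of -0.27 (adjusted p = 0.201 by limma).

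Complex II links the tricarboxylic acid cycle to the respiratory chain, and its catalytic subunits fell while its membrane anchors did not pass. Sdha, the flavoprotein that oxidises succinate, had signals of 1790.4, 1885, 1476, 2195 and 1356 in leg MDX, against 2233, 2540.3, 2484, 3464 and 2535 in leg control. No MDX array reached the lowest control (log2 difference -0.61, SE 0.13, limma adjusted p = 0.00170). Sdhb, the iron-sulfur subunit, had 7099.8, 6659, 5014, 6753 and 7909 against 14197, 8192, 6798, 9239 and 9265 (log2 difference -0.48, limma adjusted p = 0.0405). Its groups overlapped, and 6 of the 20 fits that left out 1 array lost its call, at limma adjusted p values of up to 0.125. The anchor subunits Sdhc and Sdhd had log2 differences of -0.18 and -0.28 with adjusted p = 0.507 and 0.329 by limma; their differences from Sdha were not tested.

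In complex III, Uqcrc1, a core subunit, was among the clearest differences of all the genes. Its signals were 7907, 7726, 6618, 8650.3 and 6823 in leg MDX, against 11689, 10697, 10547, 12541 and 11950.3 in leg control, and the groups were well apart (1.53-fold lower, log2 difference -0.61, SE 0.11, limma adjusted p = 0.000258). Uqcrb, a ubiquinone-binding subunit, had 12525, 13864, 10433, 11957 and 12816 against 26485, 14359, 13869, 17442 and 16414. Leg MDX 2 lay just below the lowest control, leg control 3, and leg control 1 was the highest array. The call (log2 difference -0.49, limma adjusted p = 0.0433) was lost in 11 of the 20 fits that left out 1 array. The partner core subunit Uqcrc2 had a log2 difference of -0.52 (adjusted p = 0.0933 by limma), and Cyc1, cytochrome c1, of -0.35 (adjusted p = 0.161 by limma). Cycs, the soluble carrier between complexes III and IV, had signals of 1420.3, 1638, 1343, 1377 and 1439 against 1843, 1754, 1608, 2399 and 1766. Only leg MDX 2 reached the control range, at a log2 difference of -0.37 that did not pass (limma adjusted p = 0.134).

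Complex IV held both directions. Cox6a1, the form of subunit VIa of most tissues other than heart and skeletal muscle, was the 1 gene of the 70 that rose in leg MDX muscle: its signals were 3015, 3858, 4144, 4767 and 4508 in leg MDX, against 2282, 2167, 2379, 2879 and 2107 in leg control. Every MDX array exceeded every control (1.71-fold, log2 difference 0.77, SE 0.14, limma adjusted p = 0.000501). Its striated muscle counterpart Cox6a2 had 6578, 7329, 4454, 4532 and 5584 against 9396, 5462, 5317, 4025 and 8914, overlapping widely (log2 difference -0.17, limma adjusted p = 0.851). In the VIIa pair both forms fell. Cox7a1, the heart and skeletal muscle form, had 3431, 3791, 2465, 3551 and 4025 against 6544, 4648, 4256, 7419 and 4509, with no overlap (log2 difference -0.65, limma adjusted p = 0.00545). Cox7a2, the widely expressed form, had 8703, 10141, 8278, 9669.9 and 4116 against 18043, 10819, 11003, 11547 and 13163, also with no overlap (log2 difference -0.70, limma adjusted p = 0.0155). The call of Cox7a2 was lost with quantile normalization (log2 difference -0.44, limma adjusted p = 0.102). Of the widely expressed forms of these pairs, 1 thus rose and 1 fell.

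The remaining complex IV genes gave smaller or less even differences. Cox5b, a subunit on the matrix side, had signals of 8058, 7979, 5956, 7371 and 8388 in leg MDX, against 16992, 9638, 8770.5, 12238 and 11250.2 in leg control, with no overlap (log2 difference -0.61, limma adjusted p = 0.0184). Cox4i1, the usual form of the largest nuclear subunit, had 939.9, 948, 717, 993 and 845 against 1053, 1078, 1035, 1393 and 1597, with no overlap either (log2 difference -0.46, limma adjusted p = 0.0334). Leaving out single arrays lost the call of Cox4i1 in 4 of 20 fits and that of Cox5b in 2. Of the other isoform genes, Cox8b had a log2 difference of -0.43 (adjusted p = 0.0921 by limma), the testis form Cox8c -0.18, Cox6b1 -0.15 and Cox7a2l, which helps to join complexes III and IV, -0.03. None of those 4 passed. The testis form Cox6b2 lay at 73.9 to 100.3 in leg MDX and at 95.7 to 376 in leg control, below the signal of 200 required for testing except for 1 control array; it was tested through other arrays.

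In complex V, 2 of 14 tested genes fell, and the clearest was Atp5e, the epsilon subunit of the central stalk. Its signals were 5423, 6884, 3989, 5714 and 6147 in leg MDX, against 10069, 10012, 10307, 10656 and 10044 in leg control. The control arrays lay within a narrow band and every MDX array lay below it (1.84-fold lower, log2 difference -0.88, SE 0.14, limma adjusted p = 7.75e-05, the smallest adjusted p of the 70 genes). Atp5c1, the gamma subunit, which turns in the same stalk, had 11641 ± 1241 against 15517 ± 2307 (SD, n = 5 each; log2 difference -0.41, limma adjusted p = 0.0352). The call of Atp5c1 was lost in 4 of the 20 fits that left out 1 array. It was also lost with quantile normalization (-0.12, limma adjusted p = 0.526) and without leg control 1 and 4 (-0.28, limma adjusted p = 0.201). The other tested probe set of Atp5c1 was lower too (-0.47, limma adjusted p = 0.00782). The catalytic ring subunit Atp5a1 had a log2 difference of -0.36 (adjusted p = 0.255 by limma). The c-ring genes Atp5g1 and Atp5g2, which encode the same mature protein behind different import signals, had -0.07 and -0.15, and neither passed. Atp5pb, a peripheral stalk subunit, had the 1 positive log2 difference of the complex, 0.06, and did not pass.

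Markers of other cells moved with the leg comparison. All 14 tested macrophage genes of 17 on the array rose in leg MDX muscle (median log2 difference 3.17), and the summed macrophage signal was 44209 to 57480.2 in leg MDX, against 5209 to 7449 in leg control. Of 9 fibroblast genes 8 rose, with sums of 48069 to 55939 against 24281 to 29059. Of 5 myofibre genes shared by fibre types 1 fell and 0 rose (median log2 difference -0.38), with sums of 19765 to 42161 against 27489 to 66522. That median lay close to the -0.43 of the subunit genes, while the medians were 0.26 over slow fibre genes and -0.32 over fast fibre genes. None of the slow fibre genes (10 tested), fast fibre genes (10 tested) or adipocyte genes (5 tested) passed in either direction by limma, with 1, 2 and 1 genes at an unadjusted p under 0.05; neither did endothelium (4 tested), nerve (2) or gland genes (2), and 1 of 4 smooth muscle and 1 of 3 heart genes rose. Without leg control 1 and 4 the 14 macrophage and 8 fibroblast genes still rose (medians 3.12 and 1.17), 0 myofibre genes passed (median -0.25) and 2 of 10 slow fibre genes fell; this and the following counts without both arrays were added after seeing the data. In that fit the medians were -0.01 over slow fibre genes and -0.15 over fast fibre genes. The part of these cell types in the lower subunit signals was not tested.

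With all arrays the share of lower genes rose with brightness. Among genes with a mean signal over 5000, 18 of 44 subunit genes fell in leg MDX muscle (40.9%, median log2 difference -0.45), and 52 of the 245 other probe sets of that brightness fell (21.2%, median -0.29). Between 1000 and 5000, 4 of 12 subunit genes fell, against 14.1% of 1638 other probe sets, and under 1000, 2 of 14, against 3.93% of 5241. Leg control 1 was high, with a median deviation from the 20-array mean of 0.61 log2 units over the bright subunit genes and 0.58 over the other bright probe sets. Leg MDX 3 was low in both, at -0.57 and -0.34. The bright subunit genes averaged -0.31 over leg MDX arrays and 0.15 over leg control arrays, and the other bright probe sets -0.09 over leg MDX and 0.13 over leg control arrays. For the subunit genes no leg MDX array reached any leg control array, while the other bright probe sets overlapped. Without leg control 1 and 4, 4 of the 44 bright subunit genes (median -0.28) and 27 of the 245 other bright probe sets (median -0.16) fell, a share no higher among the subunit genes. Between 1000 and 5000, 2 of 12 subunit genes (16.7%, median -0.26) then fell, against 10.4% of the other probe sets. Under 1000 it was 1 of 14 (7.14%, median -0.37), against 2.42%. In that fit the subunit genes thus showed no steady rise of the share with brightness, and the dimmest had the most negative median. The bands of brightness were chosen after these values were seen, and the part of brightness in the result was not tested.

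**Figure D2:**
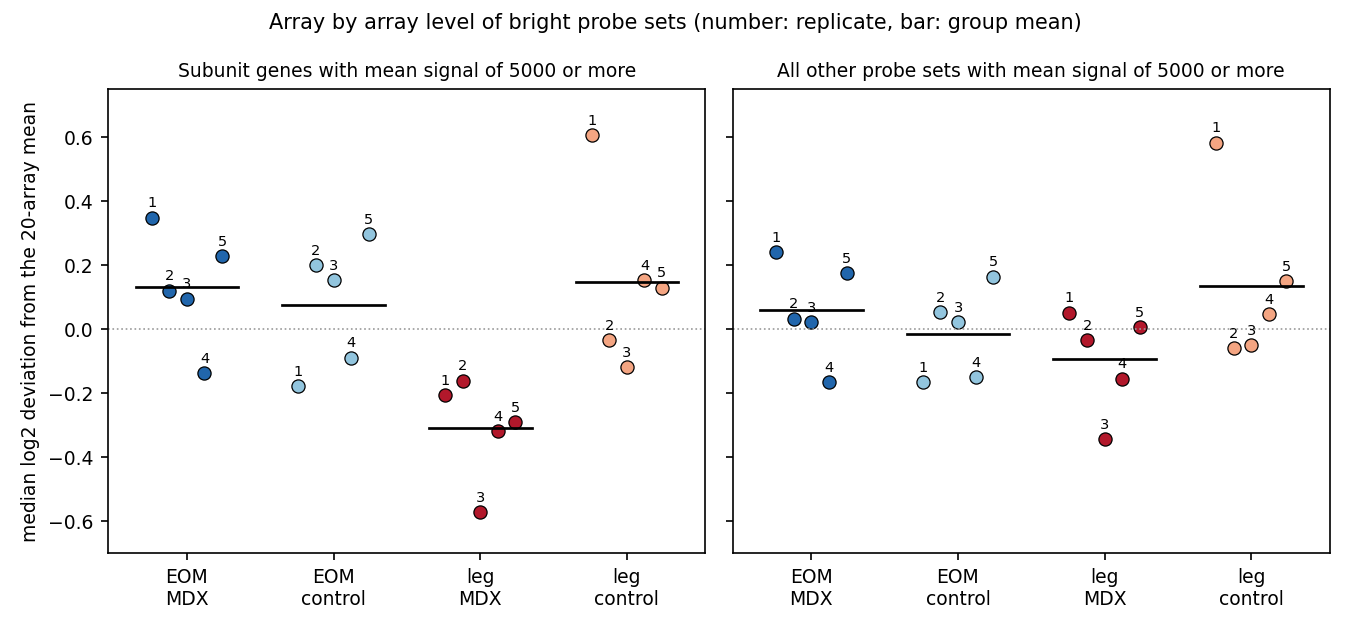
Median log2 deviation of each array from the mean of 20 arrays (vertical axis), over subunit genes with a mean signal of 5000 or more (left) and over all other probe sets of that brightness (right); points are arrays numbered by replicate and bars are group means. Leg MDX arrays lie below leg control arrays in the left panel without overlap, and leg control 1 and leg MDX 3 stand at the ends of their groups in both panels.

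Without leg control 1 and 4 the direction was kept by most genes and the number of calls fell. The 7 lower genes were then Ndufb6, Ndufs1, Ndufs4, Ndufv3, Sdha, Uqcrc1 and Atp5e, and Cox6a1 was still higher; 4.62% of all tested probe sets were then lower. The median log2 difference was -0.28, and 65 of 70 were negative. Atp5e kept a log2 difference of -0.87 (limma adjusted p = 0.000800), Uqcrc1 of -0.56 (0.00262), Sdha of -0.56 (0.00699), Ndufs4 of -1.13 (0.00199) and Cox6a1 of 0.86 (0.000926). Ndufb8 and Ndufa8 then missed the threshold narrowly, at -0.55 (0.0540) and -0.55 (0.0698), and Cox7a1 and Cox7a2 did so at -0.39 (0.0848) and -0.57 (0.0843). By complex, 4 genes of complex I, 1 of complex II, 1 of complex III, 0 of complex IV and 1 of complex V were lower. Ndufs1, Ndufs4, Ndufv3, Sdha, Uqcrc1, Atp5e and Cox6a1 passed in every alternative tried.

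**Figure D3:**
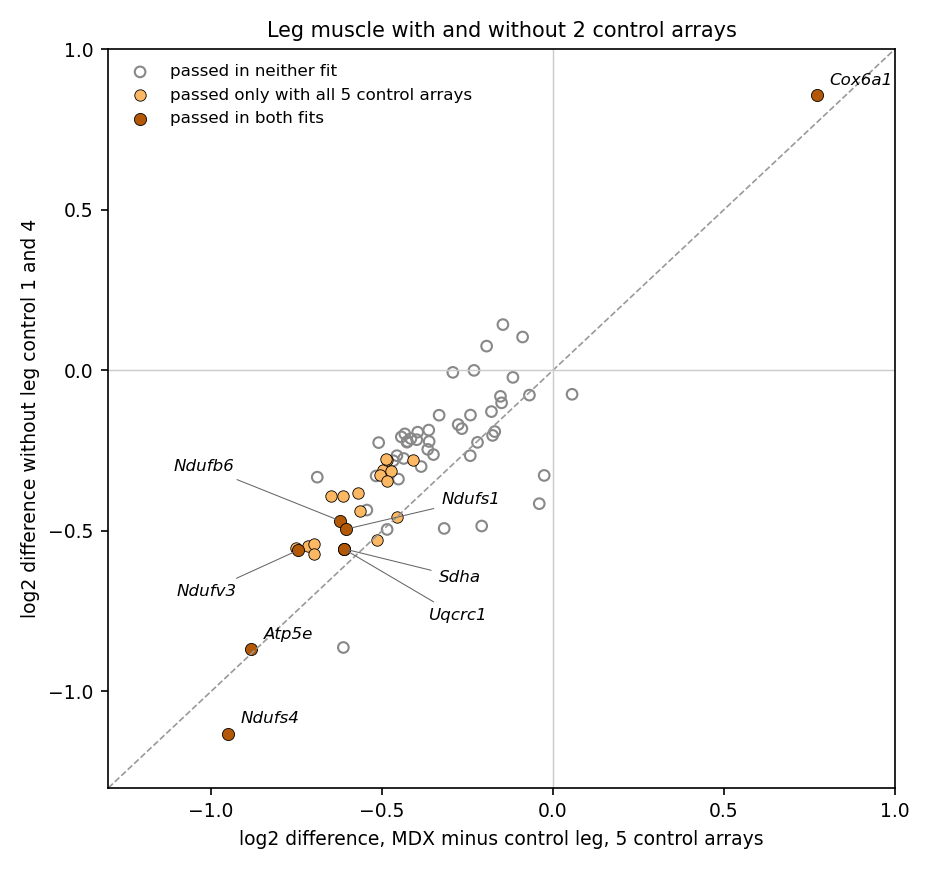
Log2 difference in leg muscle, MDX minus control, of each tested gene with all 5 control arrays (horizontal axis) and without leg control 1 and 4 (vertical axis); the dashed line marks equal values, dark points passed in both fits, light points passed only with all control arrays and open points in neither. Most points lie between the line and 0, and the 8 named genes passed in both.

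In extraocular muscle no subunit gene passed. Of the 70 genes 0 fell and 0 rose in EOM MDX against EOM control by limma, 2 had an unadjusted p under 0.05, and the smallest adjusted p was 0.955; over all tested probe sets 0.0833% passed, 0.0416% in each direction. The median log2 difference was -0.02 (all tested probe sets -0.02), with 33 positive and 37 negative values. Every alternative also gave 0. The medians by complex were 0.03, -0.14, 0.01, -0.05 and 0.08 for complexes I to V.

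The 3 genes with the smallest unadjusted p belonged to complex V. Atp5md, a small membrane subunit, had signals of 17749.6, 9163, 9092, 6529 and 11385 in EOM MDX, against 4867, 9142, 7271, 3772 and 7507 in EOM control, with overlapping ranges (log2 difference 0.72, SE 0.29, limma adjusted p = 0.955). Atp5j2, the f subunit, was at 108 to 139.9 against 141 to 214 with no overlap (log2 difference -0.50, limma adjusted p = 0.955), and Atp5o, which joins the peripheral stalk to the catalytic head, at 7851 to 14131 against 5834 to 9839 (log2 difference 0.43, limma adjusted p = 0.958). The genes that led in leg muscle gave Uqcrc1 9938, 8335, 9581, 8602 and 10355 in EOM MDX, against 10442, 10213, 10430.0, 9844 and 10986 in EOM control, and Sdha 2819.9, 2564, 2652, 2510.3 and 2759 against 3168, 2747, 2708, 2803 and 3211. Both overlapped (log2 differences -0.15 and -0.14, adjusted p = 0.999 for each by limma). Cox6a1 had 4869, 5309, 5334, 3843 and 6087 against 3934, 4989, 3994, 4747 and 5537 (log2 difference 0.13, limma adjusted p = 0.999). Cox6a2 varied widely, from 2284 to 12637 in EOM MDX and from 1130.5 to 8608 in EOM control. The summed macrophage signal was 8930.4 to 16448 in EOM MDX, against 8317 to 11672 in EOM control, and 1 of 14 macrophage genes was higher.

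Whether the mdx effect differed between the muscles was tested directly, as the leg log2 difference minus the EOM log2 difference. Of 70 genes 3 passed, all with the more negative effect in leg muscle, against 6.22% of all probe sets, 1.29% in that direction and 4.93% in the other; 64 of 70 values were negative, with a median of -0.46 (-0.02 over all tested). With quantile normalization 59 were negative, the median was -0.25, 2 genes passed with the more negative effect in leg muscle and Cox6a1 passed with the more positive one. Atp5e had log2 differences of -0.88 in leg and 0.08 in EOM, with signals of 8762, 8448, 7576, 8156 and 8349.8 in EOM MDX and 7787, 8694, 9519.6, 7713 and 5746 in EOM control (difference of effects -0.97, SE 0.20, limma adjusted p = 0.00373). This call held in each fit without 1 array. Ndufs4 (-1.03, limma adjusted p = 0.0466) and Ndufb6 (-0.66, limma adjusted p = 0.0429) passed narrowly; leaving out single arrays lost the call of Ndufs4 in 17 fits of 20 and that of Ndufb6 in 13. Cox7a2 (-0.92, limma adjusted p = 0.0505) and, in the other direction, Cox6a1 (0.64, limma adjusted p = 0.0659) missed the threshold. For the other genes that fell in leg muscle, a difference from the extraocular effect was therefore not shown. The count was 1 without EOM control 1, 2, 3, 4 or 5, leg MDX 3 or 5, or EOM MDX 1 or 3, each left out singly, and 2 without leg control 1 and 4.

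Among controls the 2 muscles differed in few of these genes. In EOM control against leg control 1 gene was higher and 1 lower, against 10.3% and 7.41% of all tested probe sets, and the median log2 difference was -0.08. Cox6a1 had signals of 3934, 4989, 3994, 4747 and 5537 in EOM control, against 2282, 2167, 2379, 2879 and 2107 in leg control, a gap of 1.96-fold with no overlap (log2 difference 0.97, SE 0.14, limma adjusted p = 4.54e-05). Ndufs4 was lower in EOM control, at 308, 343, 365, 347 and 387, against 376, 657, 652, 598 and 641 in leg control. Only leg control 1 lay inside the EOM range (log2 difference -0.71, limma adjusted p = 0.0233), and leaving out EOM control 1 or leg control 2, 3 or 5 lost the call, at limma adjusted p values of up to 0.0579. The gene with the next smallest p was Atp5e (-0.39, limma adjusted p = 0.0543). Complex II had 4 of 4 positive values and complex V 11 of 14 negative ones, none past the threshold. Without leg control 1 and 4 the median was 0.02, and Cox6a1 (1.05, limma adjusted p = 0.000110), Ndufs4 (-0.90, 0.0118) and Cox7a1, then higher in EOM (0.45, 0.0408), passed. The direction of the median thus turned with the arrays used, and it also turned with quantile normalization (0.04).

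Among MDX mice the muscles were apart. In EOM MDX against leg MDX 24 of 70 genes were higher and 0 lower, against 9.24% and 8.83% of all tested probe sets, and 62 of 70 log2 differences were positive, with a median of 0.36 (0.00 over all tested). By complex 9 of 28 genes were higher in complex I, 2 of 4 in II, 4 of 8 in III, 5 of 13 in IV and 2 of 14 in V, with medians of 0.35, 0.33, 0.45, 0.33 and 0.36, and Cycs and Ndufaf1 were higher too. Leaving out single arrays lost the call of Ndufaf1 in 15 of 20 fits and that of Sdhb, in complex II, in 16. The difference between EOM MDX and leg MDX uses no leg control array. Its p-values do, through the spread shared by all 4 groups. The comparison also shares the leg MDX arrays with the leg comparison, so the 2 sets of calls are not independent. The count was 26 in the fit without leg control 1 and 4. It was 11 without leg MDX 3 and 14 without EOM MDX 1, 2 or 3.

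Ndufb10, a membrane arm subunit of complex I, had the smallest adjusted p, with signals of 11119, 9916, 10957, 9743 and 12901 in EOM MDX, against 6373, 6635, 5987, 6972 and 6758 in leg MDX. The groups were far apart (1.66-fold, log2 difference 0.73, SE 0.13, limma adjusted p = 0.000272). Sdha had 2819.9, 2564, 2652, 2510.3 and 2759 against 1790.4, 1885, 1476, 2195 and 1356, and Ndufs1 7979.9, 6265, 5872, 6103 and 8113 against 5053, 4599, 3941, 5079 and 3274. Neither overlapped (log2 differences 0.63 and 0.65, limma adjusted p = 0.00129 and 0.00169). Ndufv1, the NADH-binding subunit, had 17559.7, 14593, 14706, 11322 and 16976 against 10442, 9498, 8290.1, 9655 and 9964, again with no overlap (log2 difference 0.64, limma adjusted p = 0.00318).

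Cycs had signals of 1821, 2145, 2615, 2032 and 2841 in EOM MDX, against 1420.3, 1638, 1343, 1377 and 1439 in leg MDX, with every extraocular array above every leg array (1.57-fold, limma adjusted p = 0.00659). Atp5e (0.57, limma adjusted p = 0.00508), Atp5k, the e subunit of complex V (0.70, 0.0121), Ndufa8 (0.69, 0.00720), Ndufb6 (0.52, 0.00967) and the accessory subunit Ndufa5 (0.61, 0.0109) completed the 10 with the smallest adjusted p. Those 10 and Cox7a1 kept their calls in each fit without 1 array and in every other alternative. In complex III, Uqcr11, Uqcrc1, Uqcrc2 and Uqcrq passed, with log2 differences of 0.31 to 0.71, and leaving out single arrays lost each of these calls in 5 to 14 of 20 fits. Cox6a1 and Cox6a2 had log2 differences of 0.33 and 0.29 and did not pass (limma adjusted p = 0.126 and 0.740). Ndufa4l2, placed with complex I by its symbol although its relative Ndufa4 is now counted with complex IV, had the largest log2 difference, 0.90, at a dim signal of 266 ± 54.6 against 143 ± 31.7 (SD, n = 5 each; limma adjusted p = 0.0812). Among genes over 5000, 18 of 44 subunit genes were higher in EOM MDX, against 15.5% of the other bright probe sets. All 14 tested macrophage genes were lower in EOM MDX than in leg MDX (median log2 difference -2.09); their part in the result was not tested.

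**Figure D4:**
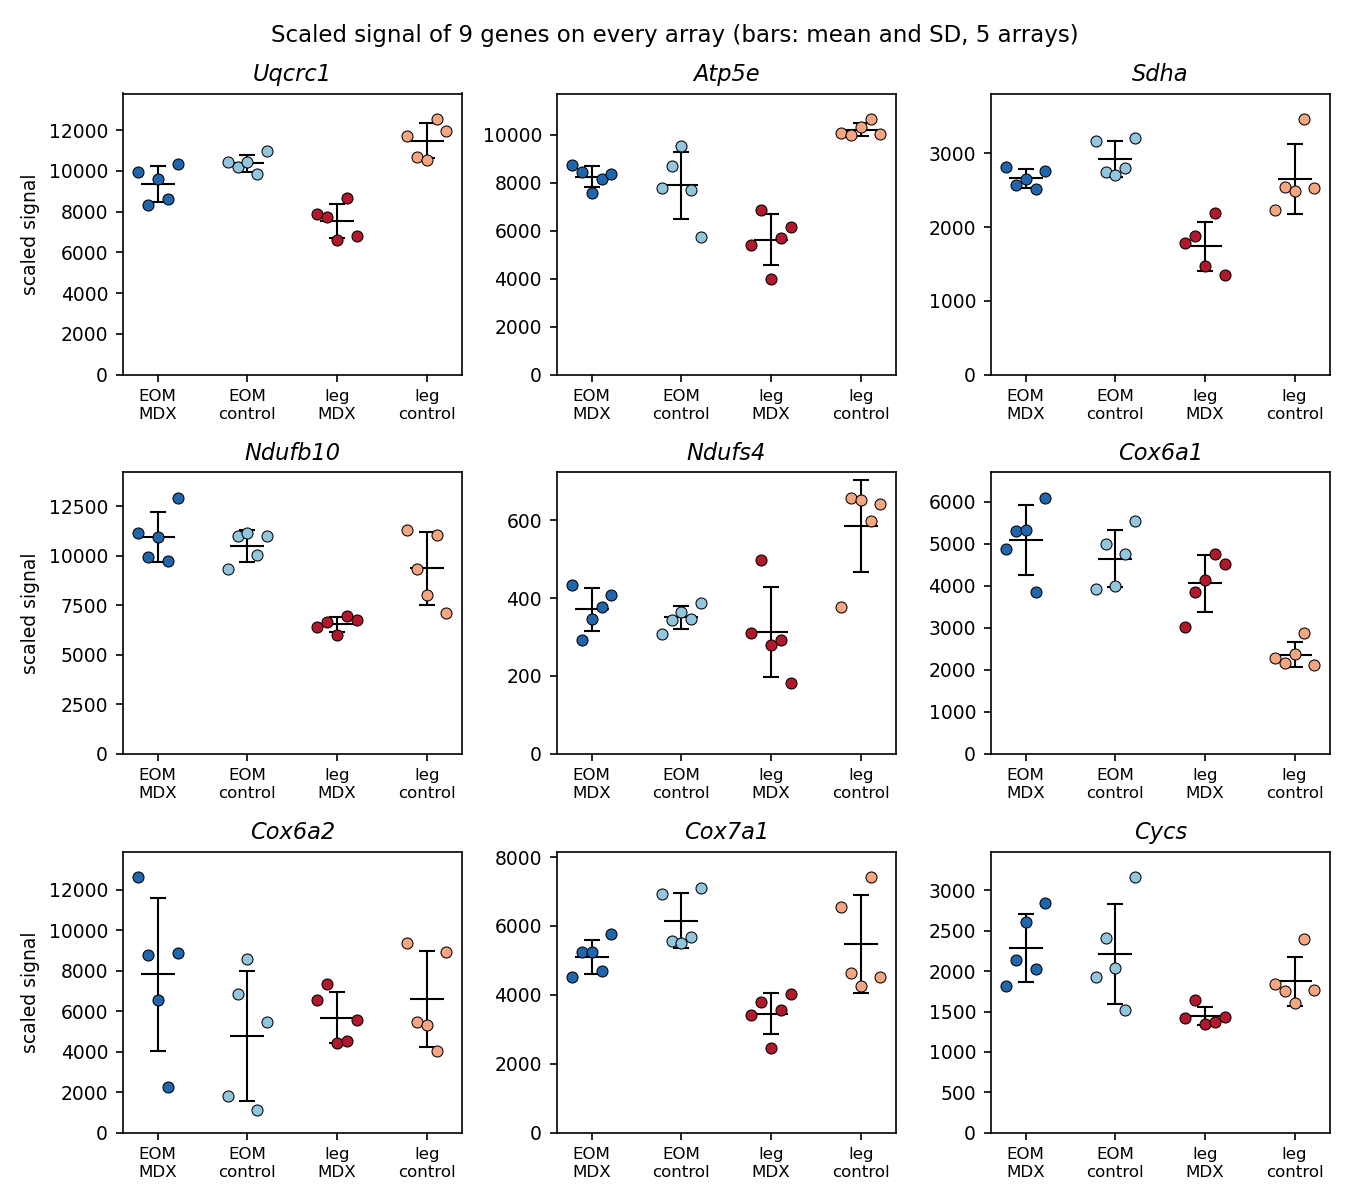
Scaled signal (vertical axis, from 0) of 9 subunit genes on every array of the 4 groups (horizontal axis); points are arrays and bars the mean and SD of 5 arrays. For Uqcrc1, Atp5e and Sdha the leg MDX arrays lie below the other groups' means, Cox6a1 is lowest in leg control, and Cox6a2 spreads from 1130.5 to 8608 within EOM control.

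Genes that feed or build the respiratory chain went the same way as the subunits in leg muscle, in part. Over all tested probe sets 7.15% fell and 10.7% rose (median log2 difference -0.06). Of 12 tested tricarboxylic acid cycle genes 6 fell and 0 rose in leg MDX muscle (median log2 difference -0.41). The 3 with the smallest adjusted p were Idh3a (3229 ± 222 in leg MDX, against 4619 ± 438 in leg control, SD, n = 5 each; log2 difference -0.51, limma adjusted p = 0.00107), Idh3g (-0.60, 0.00122) and Suclg1 (-0.77, 0.00145), 2 subunits of the NAD-dependent isocitrate dehydrogenase and 1 of succinyl-CoA ligase. Of 11 genes of respiratory chain assembly, quinone synthesis and electron transfer to quinone 4 fell (median -0.46), led by Coq9, which ubiquinone synthesis needs (3208 ± 847 against 5639 ± 361; log2 difference -0.86, limma adjusted p = 0.000628), with Etfa and Etfb, the electron transfer flavoprotein subunits (-0.46 and -0.47). Of 56 mitochondrial ribosomal protein genes 15 fell and 0 rose (median -0.32). Of 7 carriers and channels Ucp3 and Slc25a20, the carnitine-acylcarnitine carrier, fell (-0.92 and -0.67), and Atpif1, the inhibitor of complex V, rose (0.66, 1.58-fold, limma adjusted p = 0.000265). Of 6 pyruvate entry genes 0 fell and Pdk3, a kinase that inhibits pyruvate dehydrogenase, rose at least 4.30-fold (limma adjusted p = 2.36e-05). Without leg control 1 and 4, 5 cycle genes (median -0.34), 4 assembly and quinone genes (-0.43), 10 mitochondrial ribosomal genes (-0.33) and 1 carrier fell, against 4.62% of all tested probe sets (-0.09), and Ucp3 missed the threshold (-0.69, limma adjusted p = 0.0727).

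Of 8 regulators of mitochondrial genes in leg muscle, Esrra, the ERR alpha receptor, and Ppara fell (-0.61 and -0.54, limma adjusted p = 0.00357 and 0.0246), and Hif1a, the oxygen-sensing factor, rose (1.18, 6.73e-05); all 3 also passed without leg control 1 and 4. Ppargc1a, the coactivator PGC-1 alpha, had 175 ± 48.7 in leg MDX, against 200.1 ± 46.5 in leg control (log2 difference -0.20, limma adjusted p = 0.711). No gene of these 6 lists, 100 tested in all, passed in EOM MDX against EOM control by limma, and 3 had an unadjusted p under 0.05. In the test of the difference between the muscles' mdx effects Pdk3 (1.98) and Hif1a (1.24) passed, both more positive in leg muscle. Between muscles Ppargc1a was higher in EOM than in leg in both genotypes with all arrays: 379 ± 139.8 in EOM MDX, against 175 ± 48.7 in leg MDX (log2 difference 1.07, limma adjusted p = 0.0158), and 438 ± 146 in EOM control, against 200.1 ± 46.5 in leg control (1.08, 0.0152). The control difference was 0.99 without leg control 1 and 4 and then missed the threshold (limma adjusted p = 0.0602). In EOM MDX against leg MDX 5 of 12 cycle genes (led by Idh3a, 0.61, and Ogdh, 0.60, a subunit of 2-oxoglutarate dehydrogenase), 5 of 11 assembly and quinone genes, 8 of 56 mitochondrial ribosomal genes and 1 of 7 carriers were higher, against 9.24% of all tested probe sets, and none of these lists held a lower gene; the shares of ribosomal genes and carriers were not far from that background. Among regulators Ppara (1.23) and Esrra (0.43) were higher and Hif1a (-0.63) lower. In EOM control against leg control, 16 of the 100 genes passed, near the background of 17.7% (10.3% higher and 7.41% lower): 1 cycle gene, 1 pyruvate entry gene, 2 carriers, 2 assembly and quinone genes and 3 regulators were higher, and 1 carrier, 1 assembly and quinone gene and 5 mitochondrial ribosomal genes were lower. Without leg control 1 and 4, 0 of the 8 regulators passed, and 2 mitochondrial ribosomal genes were higher and 2 lower.

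A second probe set tested the same gene in 9 cases, 10 probe sets in all. In leg muscle all 10 had the sign of the probe set used, and 2 were lower; the calls parted for Cox4i1 and Ndufb2. In MDX mice between muscles 6 of 10 shared the sign, and the calls parted for Cox4i1 and Ndufab1. Of the 73 probe sets used, 13 bear the suffix that Affymetrix gave to probes shared within a gene family, among them those of Cox6a1, Cox4i1, Ndufa3, Ndufb2 and Uqcrb, so signal from related transcripts or processed copies of these genes cannot be told apart.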

How the data were processed

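RNA of 20 mouse muscle samples was measured on Affymetrix arrays, 5 in each of 4 groups, grouped by their titles. The authors deposited one linear signal intensity per probe set and array; the summarisation software and its settings are not given in the sources used here. All arrays had the same deposited trimmed mean, about 1500.1, but they still differed at high signals; the number of arrays limits the precision. Values were scaled to a 2% trimmed mean of 500, raised to a floor of 50 and taken to log2; 7204 of 12588 non-control probe sets reached 200 on at least 5 arrays. limma 3.58.1 in R 4.3.3 fitted 4 groups with 16 residual degrees of freedom and an intensity trend, with Benjamini-Hochberg adjustment over all 7204 probe sets in each comparison. The fit was tested on simulated data. Genes were named from the platform annotation supplied with the series (1 symbol for 10298 probe sets, several for 363, none for 1993); 8 probe sets that carry a subunit symbol among several were left out. Genes named are up to 10 per comparison and direction with the smallest adjusted p, the isoform families, complex II and the cytochromes c, and up to 3 per pathway list; further members were named after their values were seen. The members, pathway lists and marker lists were chosen with earlier results of these data known. Replicate numbers are not said by the labels to pair arrays, and same-numbered arrays correlated at -0.08 to 0.23, so the numbers were not used as pairs. Promoters came from RefSeq with Python 3.11.15 and pandas 2.3.3, figures from matplotlib 3.10.9. Alternatives were quantile normalization, deposited scaling, floors of 20 and 100, no filter or a filter of 500, no intensity trend, array weights, separate fits, a replicate block, all probe sets averaged, and arrays left out.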

Additional observations from a re-analysis of the deposited data

Results flagged for a closer look

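Sets of 5 arrays were searched for the genes named by rule, not for all tested genes, and for array medians, by group. Of these 160 sets, 12 held an array further from the others than the critical gap share of 0.71 for 5 values allows. Chance flags about 1 in 20 sets. Leg control 1 accounted for 4 of them: Ndufv1 at 15333 (other leg controls 11306 to 12244), Ndufv3 at 5399 (2697 to 3334), Cox6b2 at 376 (95.7 to 120.0) and, in the opposite direction, Ndufs4 at 376 (598 to 657). For Ndufs4 that array lay toward the leg MDX values, so the fall was larger without it. In leg control 4, Sdha was at 3464 (2233 to 2540.3). EOM MDX 5 stood apart for Atp5k at 984 (1363 to 1467), Cox7a2l at 49.8 (231 to 280.1) and Cox6b2 at 414 (85.5 to 103). Leg MDX 3 was low for Atp5md at 4533 (7722 to 8553) and in its median over complex II, at -0.65 log2 units from the 20-array mean (-0.32 to -0.19). Leg MDX 2 was low for Cox6b1 at 429 (739 to 847), while its complex IV median, -0.074, lay above the other leg MDX arrays (-0.34 to -0.26).

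The mdx effect differed between leg and extraocular muscle, by the limma test of the difference, for Atp5e (-0.97, adjusted p = 0.00373), Ndufs4 (-1.03, adjusted p = 0.0466) and Ndufb6 (-0.66, adjusted p = 0.0429), each more negative in leg muscle. Leaving out single arrays lost the call of Ndufs4 in 17 fits of 20 and that of Ndufb6 in 13, and both were lost with no filter and with the replicate block.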

How the results depend on the processing

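Direction was followed over 33 settings for 119 pairs of a named gene and a comparison, not for every gene that passed. None of these pairs that passed changed direction. Differences that did not pass could, as for Cox8b between control muscles (-0.08, and 0.15 without leg control 1 and 4). The leg count of 25 was 15 with quantile normalization, 16 with the leg arrays fitted alone, 8 without leg control 1 and 4, and 8 with quantile normalization without those arrays, an alternative chosen after seeing the data; that last setting gave 7 in EOM control against leg control, against 2. The cause was not tested. The fits without leg control 1 and 4 also used fewer arrays, and this was not separated from which arrays were left out. Leaving out 1 array at a time gave 16 to 27 in leg muscle (lowest without leg MDX 3), 0 to 0 in extraocular muscle, 1 to 4 for the difference of effects, 1 to 3 between control muscles and 11 to 26 between MDX muscles (lowest without leg MDX 3). The other settings moved no count by more than 1.5 times. With the replicate number as a block the counts were 25 in leg, 0 in extraocular muscle, 2 for the difference, 3 between controls and 22 between MDX muscles. Same-numbered arrays correlated at 0.01 to 0.18 in leg and 0.02 to 0.23 in extraocular muscle, and 3 and 2 of 5 arrays correlated best with their own number. The difference of effects could not be fitted within the compared groups alone, since it needs all 4. Of the 25 leg calls 15 held in each fit without 1 array and 7 in every setting; of the 24 between MDX muscles, 11 and 11. Of the calls of the difference, that of Atp5e held in every setting. In complex II the median difference of effects was -0.22, and 0.08 with quantile normalization. Few arrays and, for dim genes such as Cox8a, Ndufc2 and Ndufa12, signal near the floor limit what could be detected.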
